A study of Mus musculus with 4 samples.

Results

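RFX2 binding in mouse testis was examined at genes that regulate the multiciliated cell programme, namely transcription factors, cofactors and the cyclin gene Ccno. The list held 8 genes, Gmnc, Mcidas, E2f4, E2f5, Myb, Trp73, Foxj1 and Ccno, of 21938 protein-coding genes, and it was put together by their known role, with earlier results of these data known. For each gene the promoter was taken as 1000 bp upstream to 500 bp downstream of any annotated transcription start site (TSS), and peaks were also collected over the gene body and 50 kb on each side, called the window here. RFX2 ChIP-seq sequences the DNA pulled down by an antibody to RFX2. It was done on testis chromatin of 2 independent wild type (WT) mice per the series' design text. There were 2 ChIP libraries in all, replicates 1 and 2, each with 1 input library. The labels give decapsulated testis at postnatal day 29 to 30 and a mixed C57BL/6, 129/Sv and FVB/N background for all 4 libraries. The study's text describes dissociated germ cells of younger mice, and which applies could not be settled here. No mutant, treatment or other tissue was part of this experiment, the inputs entered only through the authors' peak calling, and peak lists hold no expression values against which the tissue could be checked.

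In multiciliated cells, GMNC (also called GEMC1) and MCIDAS, which are relatives of the replication inhibitor geminin, act as coactivators on E2F4 or E2F5 with a DP partner. They switch on MYB, TRP73, FOXJ1 and CCNO, and with them the genes for mass centriole production and motile cilia. RFX factors bind the X-box, an inverted repeat found at many ciliary promoters, and work beside FOXJ1, the master regulator of motile cilia. Male germ cells build a single flagellum per spermatid and use many of the same ciliary genes without centriole amplification.

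Each replicate list gave a score per peak on a −log10 scale, and rank 1 is the highest score of a list. Replicate 1 held 39825 peaks with scores of 2.03 to 475, and replicate 2 held 21274 peaks with scores of 2.08 to 266. Another list of 2726 peaks, called the combined list, gave −log10 p from 43.2 to 493, fold enrichment over local background and the summit, the position of highest signal. How this list was made is not stated, and it was treated as drawn from the same reads, so that it is not independent of the replicates. Scores depend on sequencing depth, which is unknown for these lists, so a score can be read only within its own list, and lists were compared by rank. Of the replicate 1 peaks, 20.2% were met by a replicate 2 peak by at least 1 bp, and 39.2% of the replicate 2 peaks were met by replicate 1. With 2 replicates of 1 group, no test between groups was possible and no error could be put on a score.

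Foxj1, Ccno, E2f5 and Gmnc carried a promoter peak in both replicates, and Mcidas, Trp73, Myb and E2f4 carried none in any list. The 4 of 8 genes compare with 8.77% of all protein-coding genes with a promoter peak in both replicates. In each replicate alone the same 4 genes were called, beside 14% of all genes in replicate 1 and 11.3% in replicate 2. In the combined list only Foxj1 had a promoter peak, beside 5.26% of all genes. These shares are a description. The Gmnc call depended on the definition. As a call in both replicates it was lost, leaving 3 genes, with the TSSs of protein-coding transcripts alone, beside 7.98% of all genes. The same held with the 5′-most TSS alone, beside 6.97%, and with a promoter of 500 bp upstream to 50 bp downstream, beside 7.82%. Among the top 50% of each list by score, the same 3 genes were left, beside 7.98%.

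Across the windows, 25 peaks were found in replicate 1, 10 in replicate 2 and 2 in the combined list. The windows of Ccno and Mcidas overlap, so the 8 genes gave 7 separate windows of 0.951 Mb in all. The density was 26.3 peaks per Mb in replicate 1 and 10.5 in replicate 2, where the genome held 14.6 and 7.81. The genome figures also cover DNA far from genes, and windows of the same kind around all genes were not used for this density. In each replicate, 7 of the 8 genes had a window peak, beside 80.5% of all genes in replicate 1 and 68.0% in replicate 2. In the combined list Foxj1 and Myb did, beside 24.4% of all genes. Peaks of both replicates met at 7 sites, and the other 18 replicate 1 peaks and 3 replicate 2 peaks were seen in 1 replicate alone. Scores at the shared sites ran from 6.62 to 145 in replicate 1 with a median of 14.3. Those of the 18 single peaks ran from 3.14 to 17.4 with a median of 4.47, which was also the median of the whole list. In replicate 2 the shared sites ran from 3.06 to 98.1 with a median of 7.99. Its 3 single peaks ran from 4.04 to 5.06, above the 2 shared sites of Gmnc at 3.06 and 3.62.

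**Figure D1:**
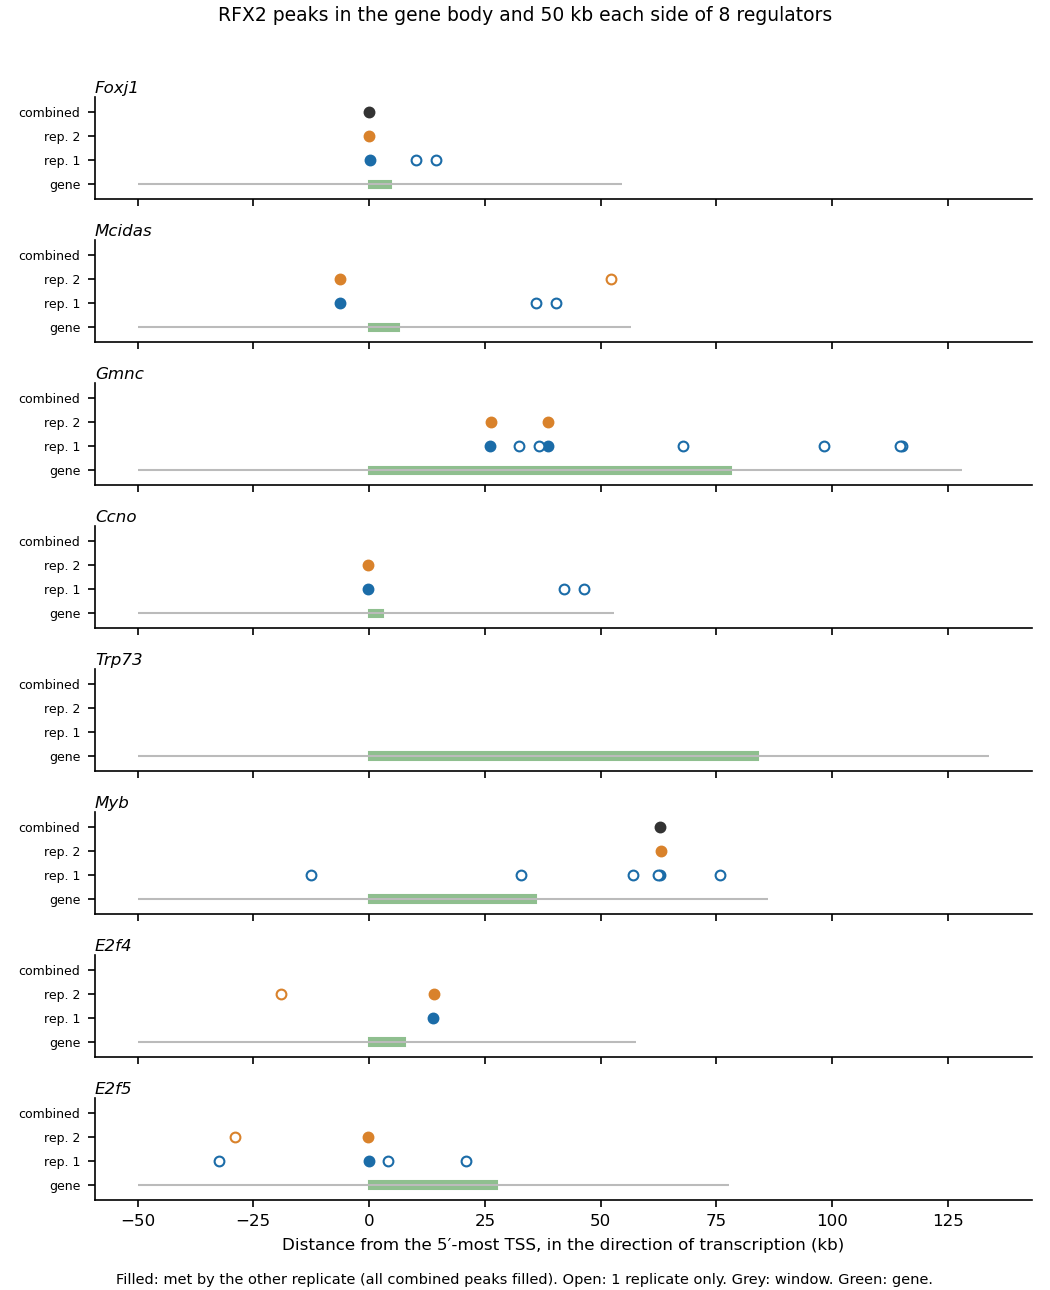
RFX2 peaks in the window of each gene, placed by distance in kb from its 5′-most TSS in the direction of transcription, with 1 row per peak list. Filled points are peaks met by the other replicate or in the combined list, open points were found in 1 replicate alone, and Trp73 has no point in any row.

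The 7 shared sites are printed below as the DNA under them, because their sequences show how closely each matched the X-box. The palindrome searched was GTTGCCATGGCAAC on both strands, and a site counted with up to 3 mismatches if it lay in the 200 bp centred on the peak or, in the combined list, on the summit. Of the 7 sites, 5 held such a match, which is in capitals. For E2f5 the capitals mark 2 arms of the repeat that lie closer together, and the second Gmnc site has neither. All sequences come from the RefSeq copy of GRCm38 patch 6, are written 5′ to 3′ on the strand of the named gene, and cover the bases common to both replicates or, for Foxj1 and Myb, 200 bp around the combined summit. The intervals are chr11:116335315-116335514 (minus strand) for Foxj1, chr13:112987437-112987720 (plus) for Ccno, chr3:14578458-14578652 (plus) for E2f5, chr16:26952868-26953023 (minus) for the Gmnc intron, chr16:26965303-26965458 (minus) for the start inside Gmnc, chr10:21097984-21098183 (minus) for the site beyond Myb and chr8:105311496-105311631 (plus) for the site beyond E2f4.
Foxj1 promoter: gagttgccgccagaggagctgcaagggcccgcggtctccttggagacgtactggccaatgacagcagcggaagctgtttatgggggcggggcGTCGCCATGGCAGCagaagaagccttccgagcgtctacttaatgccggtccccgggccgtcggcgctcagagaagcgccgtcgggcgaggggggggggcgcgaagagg
Ccno promoter: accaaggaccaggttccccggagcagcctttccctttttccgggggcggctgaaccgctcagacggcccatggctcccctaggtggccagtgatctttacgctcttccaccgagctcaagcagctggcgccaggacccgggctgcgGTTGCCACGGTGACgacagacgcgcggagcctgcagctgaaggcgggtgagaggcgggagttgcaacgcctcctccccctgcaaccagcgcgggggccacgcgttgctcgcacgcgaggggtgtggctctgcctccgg
E2f5 promoter: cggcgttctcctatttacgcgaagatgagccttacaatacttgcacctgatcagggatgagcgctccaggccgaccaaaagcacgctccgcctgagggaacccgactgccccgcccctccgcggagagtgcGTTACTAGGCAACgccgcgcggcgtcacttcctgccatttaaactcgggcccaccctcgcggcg
Gmnc intron: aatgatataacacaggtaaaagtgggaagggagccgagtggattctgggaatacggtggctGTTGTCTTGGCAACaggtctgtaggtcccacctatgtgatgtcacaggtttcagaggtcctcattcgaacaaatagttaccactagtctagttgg
Gmnc internal start: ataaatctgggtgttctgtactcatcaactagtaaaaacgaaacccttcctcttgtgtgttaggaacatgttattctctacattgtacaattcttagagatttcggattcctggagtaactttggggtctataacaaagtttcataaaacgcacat
Myb downstream: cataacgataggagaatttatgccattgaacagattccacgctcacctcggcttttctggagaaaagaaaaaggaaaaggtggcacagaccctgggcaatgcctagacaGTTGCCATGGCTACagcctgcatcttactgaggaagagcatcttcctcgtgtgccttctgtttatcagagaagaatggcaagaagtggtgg
E2f4 downstream: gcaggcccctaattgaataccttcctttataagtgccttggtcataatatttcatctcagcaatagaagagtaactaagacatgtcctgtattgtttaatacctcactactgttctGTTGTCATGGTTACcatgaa

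The Foxj1 promoter carried the strongest peak of the set in every list. Replicate 1 gave a score of 145 over chr11:116334893-116335586, rank 316 or the top 0.793% of its list. Replicate 2 gave 98.1 over chr11:116335186-116335564, rank 125 or the top 0.588%. In the combined list, the peak chr11:116334889-116335659 had a −log10 p of 176, which was rank 348 of 2726 and rank 211 among the 1003 peaks that met a promoter. Its fold enrichment was 14.7, below the list median of 17.0 and only rank 1837, so that it stood high by significance and in the lower part of the list by fold. The summit lay at −16 bp from the only annotated TSS (chr11:116335399, minus strand), inside the X-box GTCGCCATGGCAGC at chr11:116335409-116335422. That site differed from the palindrome at T3C and A13G, where positions are counted from 1 at the 5′ end on the strand of the gene, the palindrome base is given before the position and the base of the site after it. Promoters of the 5′-most TSS with a match this close made up 2.27% of all protein-coding genes. The shown DNA was 68.0% G+C with an observed over expected CpG ratio of 0.949, and the peaks reached into the 5′ UTR.

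A further 2 peaks lay downstream of Foxj1, toward Exoc7, and both were seen in replicate 1 alone. The peak chr11:116320748-116321002, 9.83 kb beyond the gene end, had a score of 8.65 and rank 9003. It held GTTGCCAAGGCAAC, which differs from the palindrome only at T8A and so was a closer match than the site in the promoter. The peak chr11:116325222-116325469, 10.1 kb from the TSS, had a score of 8.41 and no X-box in its central 200 bp. Its full width of 248 bp did hold a match of 3 mismatches that was not within those 200 bp. Neither peak was met by replicate 2 or the combined list. Of the 2276 sites with 1 mismatch in the genome, 80.6% were met in replicate 1, 59.1% in replicate 2 and 57.6% in both.

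Ccno encodes cyclin O, which is needed for centriole amplification, and it lies beside Mcidas on chromosome 13, with 6.04 kb between the TSSs. The Ccno promoter peak scored 8.26 in replicate 1 (chr13:112987437-112987720, rank 10000 or 25.1% of the list) and 18.0 in replicate 2 (chr13:112987432-112987727, rank 2026 or 9.52%). The peak centres differed by 1 bp, at −224 and −223 bp from the TSS, and covered DNA before the transcribed region. The X-box GTTGCCACGGTGAC at chr13:112987583-112987596 was centred at −213 bp. A match with up to 3 mismatches was present in the promoter of the 5′-most TSS in 8.96% of all protein-coding genes. The Ccno site kept the left 7 bases of the palindrome and differed at T8C, C11T and A12G on the right. The peak was not in the combined list.

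Mcidas had no promoter peak, and the closest match to the palindrome in its promoter had 5 mismatches. The nearest peak in both replicates was that of Ccno, whose centre lay 6.27 kb upstream of the Mcidas TSS. Beyond Mcidas the same locus holds Cdc20b, a deuterosome gene that hosts the microRNA genes Mir449a, Mir449b and Mir449c, and its TSS is 41.3 kb from that of Mcidas. A replicate 1 peak at chr13:113034082-113034241, centred at −950 bp from the Cdc20b TSS, scored 4.79 at rank 19344, with a match of 3 mismatches (GTTGTCATTGGAAC: C5T, G9T, C11G). A weaker replicate 1 peak of score 3.67 lay at chr13:113029758-113030029, nearest to the Cdc20b TSS. A replicate 2 peak of score 4.04 at chr13:113046097-113046252 met the promoter of Gpx8. None of these 3 peaks was seen in the other replicate.

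E2f5, a DNA-binding partner of GMNC and MCIDAS, had a promoter peak in both replicates. Replicate 1 gave a score of 14.3 at chr3:14578458-14578675 (rank 6250, 15.7%), and replicate 2 gave 7.99 at chr3:14578333-14578652 (rank 5301, 24.9%). The centres lay at −75 and −149 bp from the TSS, and the overlap of 195 bp was 63.1% G+C with an observed over expected CpG ratio of 1.16. The best match to the full palindrome had 5 mismatches. The shared DNA did hold GTTACTAGGCAAC at chr3:14578589-14578601, centred at −46 bp, in which 6-bp arms with the changes G4A and C6T lie 1 bp apart instead of the usual 2. This spacing was searched after the E2f5 sequence had been seen. Arms with at most 2 mismatches at spacings of 0, 1, 3 or 4 bp were present in 7.12% of the replicate 1 peaks without an X-box and in 35.2% of the combined peaks without one, against 1.36% and 1.64% of windows 1000 bp to the right. Among the single replicate 1 peaks, those at chr10:21103904-21104063 in the Myb window (score 4.47) and chr16:26876936-26877095 in the Gmnc window (score 3.14) both held GTTGCCAGGTAAC in the 200 bp around their centres, with arms 1 bp apart and 1 mismatch. The Myb peak is 160 bp wide, and the site runs past its edge. Other peaks of the E2f5 window were each found in 1 replicate. In replicate 1 they scored 3.64 to 6.24, in an intron of Lrrcc1 and at 2 places in introns of E2f5, the more distal of these nearest to the TSS of 1810022K09Rik, and in replicate 2 a peak of score 5.06 met the promoter of Lrrcc1.

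**Figure D2:**
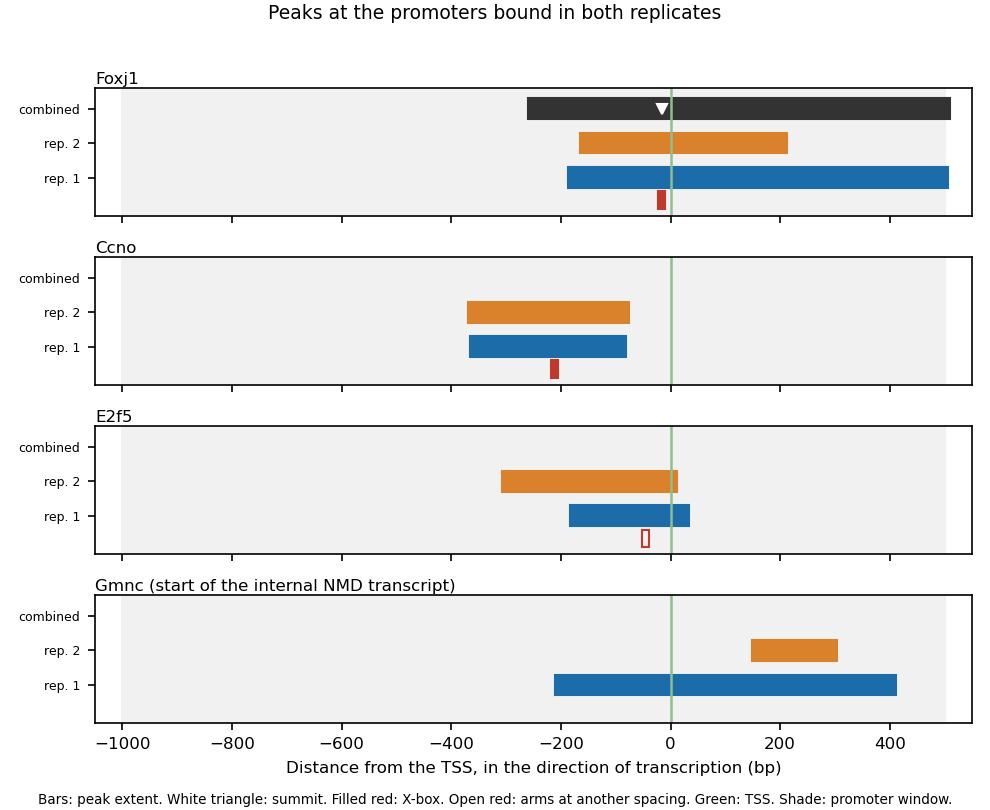
Extent of the peaks at the 4 promoters called in both replicates, by distance in bp from the TSS in the direction of transcription, with the promoter window shaded. The Foxj1 summit (white triangle) sits on the X-box (red) at −16 bp, the Ccno X-box is at −213 bp, E2f5 has only arms at another spacing (open red) and Gmnc has neither.

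E2f4 acts in the same complexes as E2f5, but it had no promoter peak. The best match in the promoter of its 5′-most TSS had 5 mismatches. A shared site lay 6.13 kb past the gene, between Elmo3 and Lrrc29, at 0.736 and 0.634 kb from their ends. It scored 6.62 in replicate 1 (chr8:105311339-105311631, rank 12627, 31.7%) and 7.80 in replicate 2 (chr8:105311496-105311676, rank 5346, 25.1%). Its X-box, GTTGTCATGGTTAC at chr8:105311612-105311625, had 3 mismatches (C5T, C11T and A12T), and the shown DNA was 37.5% G+C with 0 CpG. A replicate 2 peak of score 5.06 lay in an intron of Nol3. The E2f4 window also held 2 sites with 2 mismatches, and no peak met either of them.

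Gmnc, the most upstream regulator of the programme, had 8 window peaks in replicate 1 and 2 in replicate 2, and its 5′-most TSS had none within 26.1 kb. The peak counted as a promoter peak lay at chr16:26965195-26965817 in replicate 1 (score 8.28, rank 9234, 23.2%) and chr16:26965303-26965458 in replicate 2 (score 3.06, rank 20142, 94.7%). It falls inside the gene at the start of a transcript that is annotated as a target of nonsense-mediated decay (NMD) with an incomplete 5′ end, so this start may not be a true one. The bases common to both replicates were 35.9% G+C, and their best match to the palindrome had 7 mismatches. The wider replicate 1 peak was 44.5% G+C in its central 200 bp and held a match of 4 mismatches over its full width. A second shared site, 12.4 kb further on in an intron, scored 19.9 in replicate 1 (chr16:26952733-26953306, rank 4515, 11.3%) and 3.62 in replicate 2 (chr16:26952868-26953023, rank 18797, 88.4%). It held GTTGTCTTGGCAAC at chr16:26952949-26952962, with the changes C5T and A7T and an intact right side. Both Gmnc sites thus ranked far lower in replicate 2 than in replicate 1. The other 6 replicate 1 peaks scored 3.14 to 17.4, the highest in an intron at chr16:26923667-26924072 with rank 4954, and no replicate 2 peak met them.

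Myb, an activator of centriole amplification genes, had no promoter peak in any list, yet its window held the strongest site outside a promoter. The site lay in intergenic DNA 26.7 kb past the 3′ end of Myb and 62.9 kb from its 5′-most TSS, with Ahi1 17.4 kb away on the other side and the noncoding gene Gm48189 at 2.28 kb. The nearest protein-coding TSS was that of Ahi1. Replicate 1 gave 63.0 at chr10:21097842-21098401 (rank 1368, 3.44%) and replicate 2 gave 18.8 at chr10:21097727-21098285 (rank 1911, 8.98%). The combined peak chr10:21097670-21098358 had a −log10 p of 77.6 (rank 1463), below the list median of 82.1, and a fold of 21.3 (rank 757), above the median of 17.0. Compared with Foxj1, it thus ranked lower by significance and higher by fold. Its summit lay 10 bp from GTTGCCATGGCTAC at chr10:21098061-21098074, which differs from the palindrome only at A12T. Among genome sites with 1 mismatch, 27.8% were met by the combined list. The other 5 replicate 1 peaks of the window scored 3.57 to 5.08, and 1 of them, in an intron of Myb, held a match of 3 mismatches (GTTGCCATAGTTAC: G9A, C11T, A12T).

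Trp73, whose TAp73 form activates Foxj1 in multiciliated cells and is also needed in the germ line, had no peak in any list over a window of 184 kb. Of the 3022 genes with a window at least as long, 76 (2.51%) had none, while 14.6% of all genes had none at any length. The best match in the promoter of the 5′-most Trp73 TSS had 6 mismatches, and the Trp73 window held no site with fewer than 3.

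**Figure D3:**
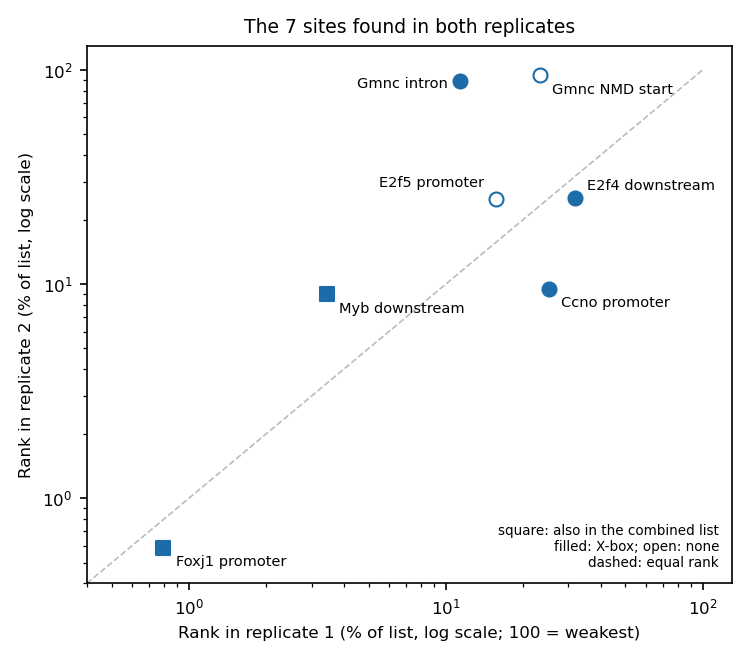
Rank of the 7 shared sites as percent of each replicate list on log axes, where low values are strong peaks and the dashed line marks equal rank. Foxj1 lies at 0.793% and 0.588%, Myb at 3.44% and 8.98%, and the Gmnc sites at 11.3% and 23.2% in replicate 1 but 88.4% and 94.7% in replicate 2.

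Over all 8 windows, 7 of 25 replicate 1 peaks, 5 of 10 replicate 2 peaks and 2 of 2 combined peaks had an X-box in their central 200 bp. The shares over all peaks were 22.2%, 24.0% and 75.4%, and in windows 1000 bp to the right 0.891%, 0.926% and 0.990%. Every X-box of a replicate 2 peak was at a shared site, and none of the 3 single peaks of replicate 2 had one. In replicate 1, 3 of the 7 shared and 4 of the 18 single peaks had one, since the Foxj1 and E2f4 sites lie over 100 bp from the centre of the replicate 1 peak. Genome wide, the share was 52.7% at shared and 14.5% at single replicate 1 peaks, and 55.1% and 3.99% in replicate 2. The windows held no exact palindrome, 2 sites with 1 mismatch, near Foxj1 and Myb, and 5 sites with 2 mismatches. Both sites with 1 mismatch were met in replicate 1 and the Myb site in replicate 2. Of the 5 sites with 2 mismatches, 2 were met in both replicates and 1 in the combined list. Over the genome, sites with 2 mismatches were met in 33.3% in replicate 1, 18.0% in replicate 2, 16.7% in both and 6.20% in the combined list.

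Genes that work with these regulators were described in the same way, as 49 genes grouped by role. Of them 15 (30.6%) had a promoter peak in replicate 1, 14 (28.6%) in replicate 2, 12 (24.5%) in both and 8 (16.3%) in the combined list, beside 14%, 11.3%, 8.77% and 5.26% of all genes. These genes were picked for known roles, so nothing particular to them can be read from the counts.

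Of the 13 relatives of the listed genes, 4 had a promoter peak in both replicates. The Mybl2 promoter, of the cell cycle relative of Myb, scored 34.8 and 16.4 in replicates 1 and 2, and its combined peak (rank 2154, fold 15.5) lay over GTTCCCATGGCAAC, with the single change G4C. The promoter of E2f8, a repressor of the E2F family, scored 60.7 and 38.0 (combined rank 1321, fold 10.4) over GTCGCCCTGGAAAC (T3C, A7C and C11A). E2f3 scored 19.4 and 7.47, and Trp53 scored 6.98 and 14.6 at a peak that also lay in the promoter of Wrap53, both without an X-box and outside the combined list. E2f1, E2f2, E2f6, E2f7, Mybl1, Trp63, Foxj2 and Foxj3 had no promoter peak in any list, and Gmnn, which encodes geminin, had a peak of score 5.06 in replicate 2 alone. Myb and E2f4 thus had no promoter peak, and nor did their relatives Mybl1, E2f1, E2f2, E2f6 and E2f7, while Mybl2, E2f8 and E2f3 had one.

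The genes for the DP partners of the E2Fs, Tfdp1 and Tfdp2, had no promoter peak. Nor did any of the 11 Notch pathway genes, which restrain the choice of the multiciliated fate. Among all genes, 14% had one in replicate 1 and 11.3% in replicate 2, so little can be read from so few genes. Of 7 other transcription factors of the programme, the 4 RFX genes had a promoter peak in both replicates. Rfx1 scored 148 and 62.5 (combined rank 361), close to Foxj1 in rank in replicate 1 and in the combined list. Rfx3, which drives ciliary genes in many tissues, scored 50.3 and 11.9 (combined rank 2185), Rfx2 itself 45.9 and 16.0 (combined rank 2621), and Rfx4 16.7 and 4.99 outside the combined list. None of these 4 promoters had an X-box in the central 200 bp of its peak in any list.

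Of 9 centriole amplification genes, 2 had the same promoter peak in both replicates and in the combined list. Deup1, which builds the deuterosome, scored 43.2 and 43.4 with combined rank 1443 and fold 11.9, with the summit 6 bp into the gene, on GTCTCCATGGCAAC (T3C, G4T). Ccp110, whose product caps centrioles, scored 33.3 and 26.1 (combined rank 2086). Plk4, Sass6, Stil and Ccdc78 had none, Cdc20b and Cep152 had peaks of 4.79 and 5.87 in replicate 1 alone, and Cep63 had weak peaks at different places in each replicate. Of 7 cell cycle regulators, Ccnb2, a cyclin of cell division, scored 81.2 and 34.7 (combined rank 890, fold 16.7) over GTTGCTATGACAAG (C6T, G10A and C14G). Ccna1, the cyclin of male meiosis, scored 27.7 and 12.6 with a match of 3 mismatches. Cdk1, Cdk2, Plk1, Cdc25b and Cdc20 had no promoter peak in any list.

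**Figure D4:**
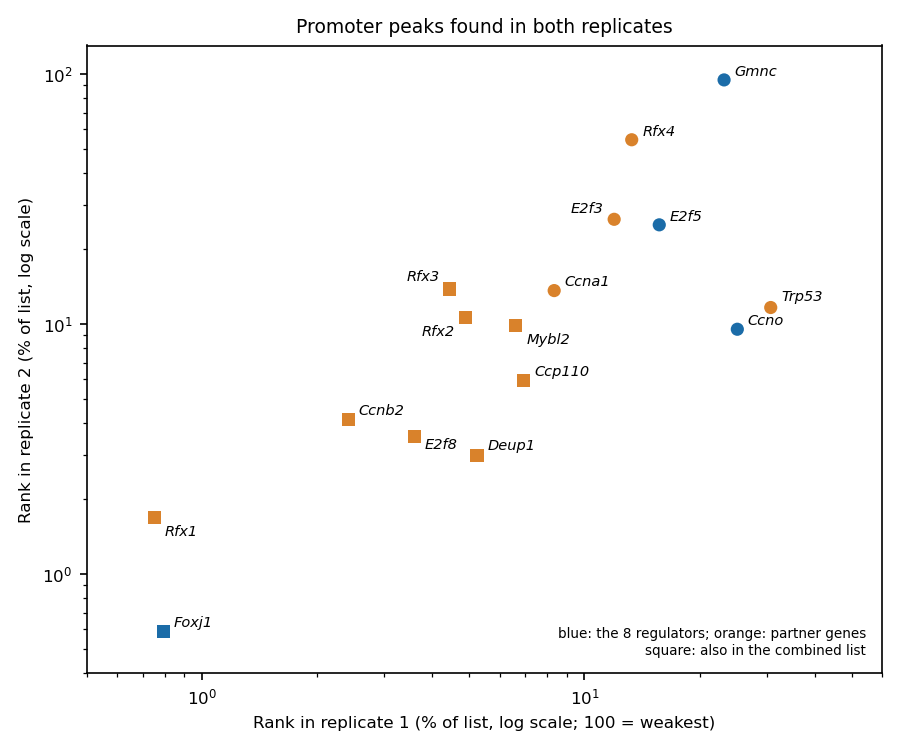
Rank of the promoter peak as percent of the list in replicates 1 and 2 on log axes, where low values are strong peaks, for the regulators (blue) and the partner genes (orange) with a promoter peak in both, with squares for genes also in the combined list. Foxj1 (0.793% and 0.588%) and Rfx1 (0.751% and 1.69%) rank highest, Ccno lies at 25.1% and 9.52%, E2f5 at 15.7% and 24.9%, and Gmnc at 23.2% and 94.7%.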

How the data were processed

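RFX2 ChIP-seq of 2 WT testis samples and 2 inputs was analysed from 3 peak lists. Per the submitters' processing notes, CASAVA 1.8.2, Bowtie 0.12.7 and MACS2 2.0.10.20130520 were used on GRCm38. Per the study's methods, reads with several locations were discarded and peaks called against input. Human reads were removed from 1 run of replicate 2. The replicate lists deposited by the authors give a −log10 value per peak, without saying whether of a p-value or a q-value. The authors' combined list gives −log10 p-values and q-values, a fold ratio, a summit offset and a score, which in 100% of peaks is 10-fold the −log10 p with its decimals dropped. The study's methods describe reproducible peaks chosen by the irreproducible discovery rate (IDR) between replicates at 0.01, and the count they give is near, but not equal to, the length of the combined list. Whether the combined list is that set is not stated, and the archive attaches it to replicate 2. Its peak names begin with "all".

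Gene models were GENCODE mouse release 21, while the lists name Ensembl release 70, so TSSs can differ from those of the authors. Ranks were set by score, tied peaks sharing the best rank. Scores are shared with another peak in 96.3%, 97.4% and 59.5% of the peaks of the lists. Overlap was at least 1 bp. Depth is unknown, and no interval was computed. Sequence was read with pysam 0.24.0, figures drawn with matplotlib 3.10.9, and the counting was tested on simulated data. The members, partner genes and lists were chosen with earlier results of these data known. Named were all 8 members, partner genes with a promoter peak in the combined list or both replicates, genes nearest to other window peaks and the Mir449 genes, and other partner genes were named after their values were seen. Alternatives were other promoters, windows, overlaps, score thresholds and motif limits.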

Additional observations from a re-analysis of the deposited data

How the results depend on the processing

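All results are counts or positions with no test, so an alternative is described as a change when a count moved by over 1.5 times. Of 84 alternative values, 61 stayed within that range and 23 moved. A count within that range can still lose a gene, and 4 alternatives that left 3 genes with a promoter peak in both replicates each lost Gmnc. With the top 10% of each list kept, 1 gene in replicate 1 (Foxj1) and 2 in replicate 2 had a promoter peak. In the combined list 0 had one, and in both replicates 1. The shares of all genes at this limit were 6.21%, 5.02%, 0.903% and 4.73%, in the same order. The limit left 2, 3 and 0 window peaks in the 3 lists. Keeping the top 50% left 1 combined window peak and 3 of the 8 partner genes in the combined list, beside 3.42% of all genes. Windows of 10 kb each side held 14, 6 and 1 peaks, and windows of 100 kb held 18 in replicate 2 and 4 in the combined list. Of the 7 shared sites, 4 remained at a reciprocal overlap of 50% and 3 with centres within 100 bp. X-boxes with at most 2 mismatches were found at 3 peaks of replicate 1 and at 3 of replicate 2, and a 100 bp search held 3 in replicate 1. The Foxj1 position was 125 bp downstream of the TSS by the centre of the combined peak, and the Gmnc position 26146 bp by the 5′-most TSS. Without either replicate, the members with a promoter peak in the replicate left numbered 4 and 4, and the partner genes 14 and 15. No paired analysis was possible because the inputs that share replicate numbers with the ChIP libraries have no values here. Depth is unknown, so that a missing peak may be a site under the limit of detection.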
